A study of Mus musculus with 6 samples.

Results

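The genes described here encode the protein components of the cytosolic ribosome. They were taken from the RNA-seq table by name: Rpl or Rps with a number and at most one of the letters a, l or x, plus Rplp0, Rplp1, Rplp2 and Rpsa, which left out rows named as pseudogenes (-ps) and the S6 kinases. The rule found 83 of the 54532 genes, 51 of the large and 32 of the small subunit. It used no measured value. Of the 83 rows, 80 had a mean of at least 1 FPKM (fragments scaled to exon length and to library size) and were tested. Rpl3l, Rpl10l and Rpl39l lay below that level.

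The samples were back epidermis from 2 groups with 3 samples each. Spry1_KO carried floxed Spry1 (Spry1flox/flox) and K14-Cre-ERT2, a Cre recombinase that tamoxifen activates and that the keratin 14 promoter drives in basal keratinocytes. Control carried Spry1flox/flox. Tamoxifen was given by gavage to both groups, 0.1 mg per g on 4 occasions a week for 4 weeks. No group carried Cre without floxed alleles, so an effect of Cre and one of Spry1 loss cannot be told apart. The labels do not say whether the 3 samples of a group are separate mice, so the p-values cover no more than the spread among these samples and part of it may be technical.

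Each cytosolic ribosome has a small subunit, which reads the mRNA, and a large subunit, which joins amino acids. Their proteins are needed in near equal numbers, and cells tune them together, largely by translation: in mammals the mRNAs start with a stretch of C and T bases, the 5′ terminal oligopyrimidine tract, through which mTORC1 and Larp1 set how many of them are translated. mRNA levels, which are what was measured here, can therefore stay flat while protein output moves. Growth signals through ERK, mTORC1 and Myc are known to raise ribosome assembly, and Sprouty1, the product of Spry1, dampens ERK signals from growth factor receptors.

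The promoters of a few members show the sequence around the start of these genes. RefSeq windows (GRCm38.p6) matched 61 of the 83 members. The lines give 30 bases before and 30 from the annotated start, 5′ to 3′ on the gene's strand, with the longest unbroken run of C and T in capitals. Rpl13a, Rps2 and Rpl41 are shown because they rose under the most processing choices, Rplp2 as a stalk protein that rose, Rps6 as the S6 kinase substrate and Rps27 as a member with near equal levels. They lie at chr7:45128716-45128775 (minus strand), chr17:24720033-24720092 (plus), chr10:128549139-128549198 (minus), chr7:141447621-141447680 (plus), chr4:86857338-86857397 (minus) and chr3:90213619-90213678 (minus), in this order.
Rpl13a: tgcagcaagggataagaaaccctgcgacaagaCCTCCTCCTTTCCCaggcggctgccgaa
Rps2: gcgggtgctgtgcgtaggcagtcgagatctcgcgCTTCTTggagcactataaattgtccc
Rpl41: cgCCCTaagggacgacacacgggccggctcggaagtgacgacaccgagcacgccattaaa
Rplp2: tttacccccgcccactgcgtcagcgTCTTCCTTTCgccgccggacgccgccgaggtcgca
Rps6: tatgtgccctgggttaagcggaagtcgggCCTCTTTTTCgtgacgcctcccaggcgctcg
Rps27: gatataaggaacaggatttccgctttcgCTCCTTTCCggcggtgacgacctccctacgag

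The run of C and T was 14 bases in Rpl13a, 10 in Rplp2, 10 in Rps6 and 9 in Rps27, and 6 in Rps2 and 4 in Rpl41. Rpl13a, Rps2, Rpl41 and Rplp2 were chosen because they rose, so these lengths cannot show whether run length goes with the change. The run in Rpl41 begins at position -28 from the annotated start and that in Rps2 at position 5. For all 6 genes GENCODE lists a gene start upstream of the RefSeq one, so the RefSeq start need not be the one used in epidermis. A run of at least 8 bases was present in these 60 bases in 35 of 61 members (57.4%) and in 25.8% of all 27025 genes with a window; the median longest run was 9 bases in members and 6 in all genes. In the 300 bases around the start, on either strand, CGGAAG (a motif that ETS factors bind, reverse complement CTTCCG) was found in 41 of 61 members (67.2%) against 18.8% of all genes. CTTTCC was found in 32 members (52.5%) against 29.3%. CACGTG, the E-box bound by Myc, was found in 6 members (9.84%) against 8.09%. These are matches of letters and not sites shown to be bound. Of the 11 members with a window that were called in the knockout comparison below, 7 held CGGAAG.

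Spry1 read 1.06, 1.49 and 1.28 FPKM in the Spry1_KO samples, against 25.8, 28.2 and 34.4 FPKM in the controls (limma adjusted p = 7.21e-06). It was low in every sample labelled Spry1_KO. Reads recovered from the FPKM values summed to between 18383323 and 21024715 per sample. The keratinocyte markers were abundant, with Krt14 at 10044 to 13077 FPKM in Spry1_KO against 2170 to 3315 FPKM in Control. Of these 6 markers 3 rose and 2 fell (summed level 23328 to 29406 FPKM in Spry1_KO against 14297 to 15843 FPKM in Control). Markers of other cells also differed between the groups. All 6 melanocyte markers rose (summed level 210 to 214 FPKM in Spry1_KO against 8.02 to 11.2 FPKM in Control, with the sums below in the same form), as did 6 of 7 macrophage and neutrophil markers (81.1 to 152 against 16.7 to 28.6 FPKM; Cxcr2 at 0 in 1 control). Of the Langerhans cell markers 6 of 7 fell (515 to 776 against 1396 to 2315 FPKM), and all 6 tested skeletal muscle markers fell (3.89 to 5.84 against 17.8 to 66.4 FPKM). Pvalb and Myh4 stood at 0 in 2 Spry1_KO samples, and Tnnc2 at 0 in every sample. Of 8 T cell markers 4 fell and 1 rose (34.4 to 69.9 against 67.4 to 95.9 FPKM), 3 of 5 fibroblast markers fell (1.98 to 6.73 against 7.48 to 16.3 FPKM) and 1 of 5 red blood cell markers fell (19.6 to 95.5 against 76.0 to 173 FPKM). The part of these cells in the results was not tested, and in bulk tissue fewer cells of a type and less RNA per cell cannot be told apart.

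The ribosomal protein mRNAs differed little between the genotypes in an epidermis where most genes differed. Of the 80 tested, 15 rose and 1 fell in Spry1_KO (limma with a trend on log2(FPKM + 1), Benjamini-Hochberg adjusted p under 0.05 over all 12629 genes tested). That is 20% of the members, against 54% of all tested genes (29.6% higher and 24.4% lower) and 60.4% of the 409 other genes that averaged 100 FPKM or more. The log2 fold changes ran between -0.35 and 1.23, and 74 of 80 members (92.5%) lay within 0.5 of 0, as did 58.4% of all tested genes. The median SE of a member, 0.14, was close to the 0.12 of all genes. The large subunit had 8 members higher and 0 lower of 48, with 11 higher and 0 lower at an unadjusted p under 0.05 by limma and 0 lower by limma-voom on recovered reads, which called 26.8% of all genes lower. The small subunit had 7 higher and 1 lower of 32.

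The median log2 fold change of the members was 0.18 (quartiles 0.00 and 0.30), 0.20 for the large and 0.12 for the small subunit, beside 0.03 for all tested genes, and 61 of 80 values were above 0. This sign depends on the scale: with TPM scaling, which brings every sample to one sum and moved the median of all genes to -0.20, the members' median was -0.10, the large subunit's -0.08 and the small subunit's -0.16. Scaled to the recovered reads, the members' median was 0.04 and that of all genes -0.08, with the large subunit at 0.06 and the small subunit at -0.01. Relative to the median of all genes the members stood 0.05 to 0.20 higher in the fits tried. The 409 other genes that averaged 100 FPKM or more had a median of 0.28 in the reported fit, above the 0.18 of the members. Rises and falls below are of FPKM as deposited, not of RNA per cell.

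**Figure D1:**
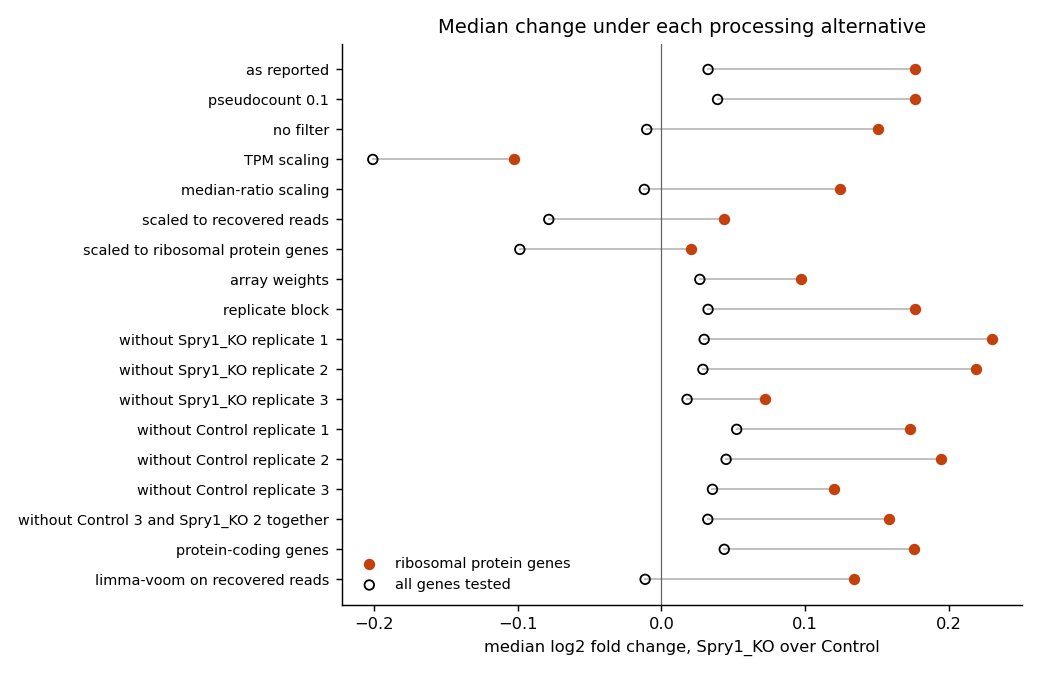
Median log2 fold change (Spry1_KO over Control) of the ribosomal protein genes (filled) and of all genes tested (open) under the reported fit and 17 alternatives. The ribosomal protein median stands to the right of the median of all genes in each row, and is below 0 under TPM scaling, at -0.10 beside -0.20.

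**Figure D2:**
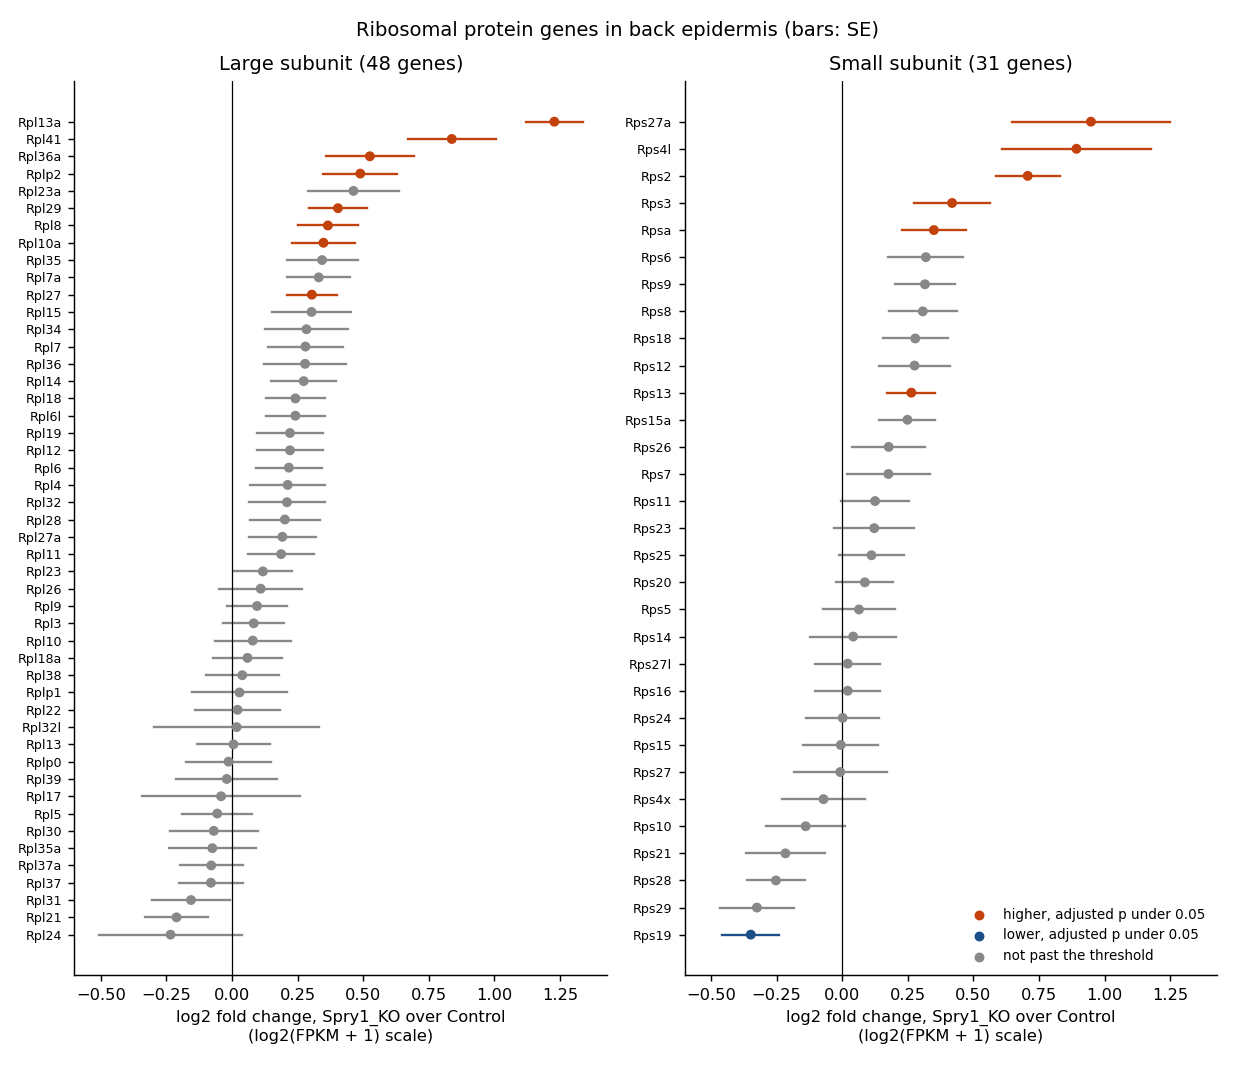
Log2 fold change (Spry1_KO over Control, log2(FPKM + 1) scale) of the ribosomal protein genes tested, 1 of them not drawn, with the large subunit on the left and the small subunit on the right; points are estimates, bars the SE, and colour marks an adjusted p under 0.05. Of all 80 genes tested 74 lie within 0.5 of 0, Rpl13a stands farthest right at 1.23, and Rps19 is the only gene called lower; under TPM scaling the median is -0.10 and not 0.18.

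Rpl13a, a large subunit protein whose introns carry small nucleolar RNAs, had the largest fold change. It measured 38.8, 33.8 and 43.2 FPKM in Spry1_KO, against 14.9, 17.1 and 15.5 FPKM in Control. Every Spry1_KO sample lay far above every control, and the log2 fold change reached 1.23 ± 0.11 (SE; limma adjusted p = 0.000194). Rpl13a (chromosome 7, 45125558 to 45128761, GRCm38) ranked 77 of 83 by level, although its protein is needed like the rest. Of its 100-base windows 55.2% also occur in transcripts of other genes, and 35.4% of its exon bases overlap Gm45713, Mir5121 or Snord33 on the same strand. Its level is uncertain, because no source used here says how reads with several matches were counted.

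Rps2 (chromosome 17, 24718116 to 24721929, GRCm38), a protein of the mRNA entry channel of the small subunit, measured 1377, 1396 and 1553 FPKM in Spry1_KO and 875, 843 and 930 FPKM in Control. The groups were well apart, with a log2 fold change of 0.71 ± 0.12 (limma adjusted p = 0.00286). Rps2 shares 58.5% of its windows with 36 annotated pseudogenes, the same caution as for Rpl13a. Rpl41 (chromosome 10, 128548114 to 128549305), a very short basic peptide of the large subunit, measured 1825, 2019 and 2611 FPKM in Spry1_KO, against 1163, 1195 and 1212 FPKM in Control. The controls lay close together and all below the lowest Spry1_KO sample (0.84 ± 0.17, limma adjusted p = 0.00546). Rpl41 shared 17.4% of its windows with 1 gene and none with a pseudogene. Of the 16 members called, Rpl13a and Rps2 passed the threshold in all 17 alternative fits and Rpl41 in 16, missing it without a filter on low values (adjusted p = 0.0578, range 0.00155 to 0.0578).

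Rps27a encodes ubiquitin fused to a small subunit protein. It measured 470, 628 and 564 FPKM in Spry1_KO, against 175, 337 and 391 FPKM in Control, with the first control far below the others. Its log2 fold change was 0.95 ± 0.30 (limma adjusted p = 0.0333), and it was called in 10 of 17 alternatives. Fau, a gene outside the naming rule that encodes a ubiquitin-like protein fused to the small subunit protein eS30, stood at 1024 ± 138 FPKM in Spry1_KO and 999 ± 69.8 FPKM in Control (SD, n = 3 each; log2 fold change 0.03 ± 0.14), and the groups overlapped.

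Apart from Rps4l, described below, the rises of the other members called were smaller. Rpl36a, a large subunit protein near the exit site for tRNA, measured 373, 388 and 555 FPKM in Spry1_KO and 301, 314 and 284 FPKM in Control (0.53 ± 0.17, limma adjusted p = 0.0339). Rps3, a neighbour of Rps2 at the mRNA entry channel that also has roles in DNA repair, measured 457, 439 and 574 FPKM in Spry1_KO and 382, 392 and 322 FPKM in Control (0.42 ± 0.15, limma adjusted p = 0.0459). In both genes the third Spry1_KO sample was the highest and the third control the lowest. Rpl29, a large subunit protein also known to bind heparin, was tighter, at 621, 585 and 607 FPKM in Spry1_KO against 486, 477 and 411 FPKM in Control (0.40 ± 0.11, limma adjusted p = 0.0203). Rpl8, Rpl10a, Rpl27 and Rps13, named after their values were seen, rose by 0.26 to 0.37 on the log2 scale, with limma adjusted p between 0.0323 and 0.0465. These 4 genes were called in 4 to 6 of 17 alternatives, Rps3 in 4, and Rpl36a and Rpl29 in 9 each.

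Rps19 (chromosome 7, 24884371 to 24889806, GRCm38), a small subunit protein whose human counterpart is mutated in Diamond-Blackfan anaemia, was the 1 member that fell. It measured 224, 224 and 264 FPKM in Spry1_KO against 316, 307 and 282 FPKM in Control. The groups did not overlap, though the third sample of each came close to the other group (-0.35 ± 0.11, limma adjusted p = 0.0317). The call held in 10 of 17 alternatives and was lost, for example, without the second control or the first Spry1_KO sample. Rps29 (679 ± 92.5 FPKM in Spry1_KO against 848 ± 72.6 FPKM in Control, log2 fold change -0.33, adjusted p = 0.0907) and Rps28 (249 ± 23.1 FPKM in Spry1_KO against 297 ± 22.7 FPKM in Control, -0.25, adjusted p = 0.0946), both named after their values were seen, did not pass limma's threshold. Among the 80 tested, Rps29 was the other member whose Spry1_KO samples all lay below the controls. When samples were scaled to the ribosomal protein genes themselves, so that only departures from the family remained, 7 members were higher (Rpl13a, Rpl23a, Rpl36a, Rpl41, Rps2, Rps3 and Rps4l) and 6 lower (Rps19, Rps29, Rps28, Rps21, Rpl21 and Rpl31), against 19.3% and 27.2% of all genes.

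**Figure D3:**
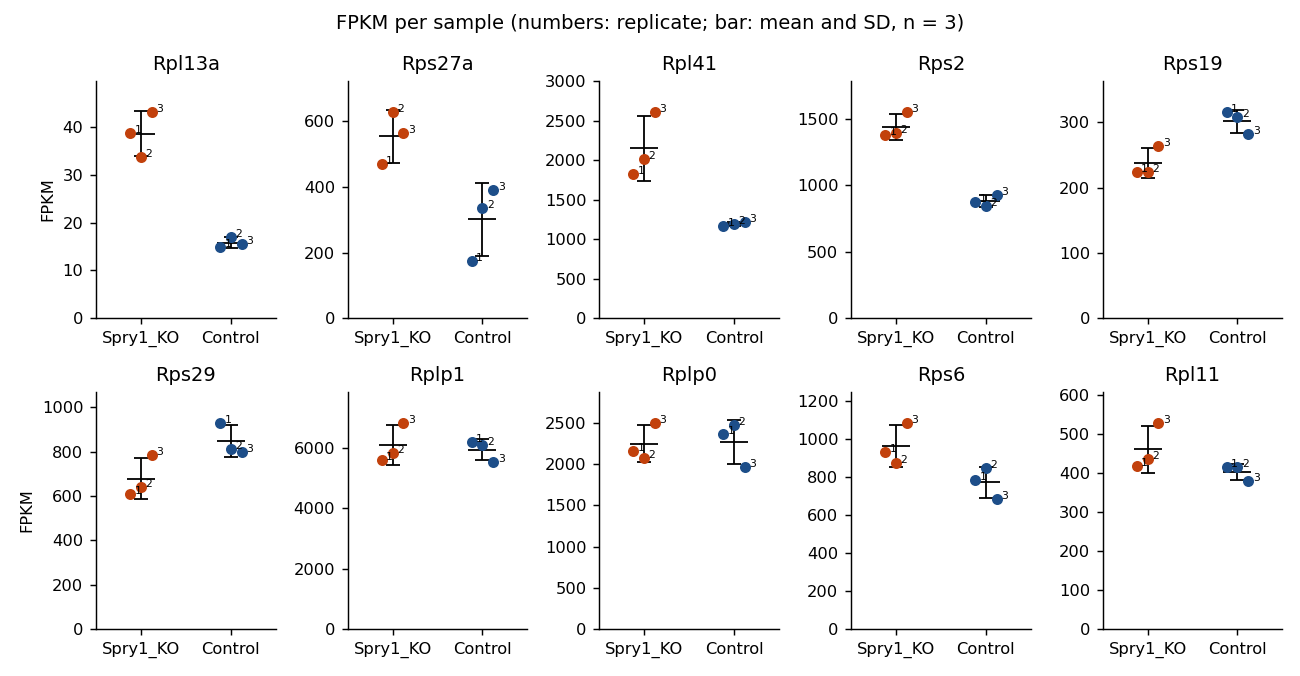
FPKM of 10 ribosomal protein genes in each sample, Spry1_KO on the left and Control on the right of each panel; numbers beside the points are replicate numbers and bars give the mean and SD (n = 3). Rpl13a, Rps27a, Rpl41 and Rps2 have every Spry1_KO sample above every control and Rps19 and Rps29 every one below, while Rplp1 and Rplp0 overlap.

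The stalk of the large subunit, which recruits elongation factors, is built from Rplp0, Rplp1 and Rplp2. Rplp1 was the most abundant member by FPKM, at 5586, 5812 and 6832 FPKM in Spry1_KO and 6183, 6108 and 5536 FPKM in Control, and the groups overlapped (0.03 ± 0.18). Rplp0, which anchors the stalk and often serves as a reference gene, averaged 2249 ± 225 FPKM in Spry1_KO and 2273 ± 270 FPKM in Control (-0.01 ± 0.16). Rplp2 was below its partner Rplp1 in FPKM, which divides by annotated exon length (2072 bases for Rplp2 and 499 for Rplp1). Recovered reads in the first Spry1_KO sample were 18065 for Rplp2 and 56017 for Rplp1. Rplp2 rose, at 434, 393 and 494 FPKM in Spry1_KO against 288, 290 and 364 FPKM in Control (0.49 ± 0.14, limma adjusted p = 0.0242). Its lowest Spry1_KO sample lay just above its highest control, and the call was kept in 9 of 17 alternatives. Rpl36 and Rps15 were the other members among the 4 most abundant by FPKM. Rpl36 averaged 2042 ± 285 and 1676 ± 123 FPKM (0.28, adjusted p = 0.173), and Rps15 averaged 1778 ± 217 and 1776 ± 24.9 FPKM (-0.01, adjusted p = 0.975 by limma), in Spry1_KO and Control. Rpsa, a small subunit protein also known as a laminin receptor, averaged 777 ± 51.4 FPKM in Spry1_KO and 611 ± 56.3 FPKM in Control (0.35 ± 0.12, limma adjusted p = 0.0473), a call that held in 4 of 17 alternatives.

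Rps6, the small subunit protein that S6 kinases phosphorylate downstream of mTORC1 and ERK, measured 929, 874 and 1085 FPKM in Spry1_KO and 784, 847 and 684 FPKM in Control. The groups did not overlap, yet the difference did not pass the test (0.32 ± 0.14, limma adjusted p = 0.0992). RNA levels say nothing of its phosphorylation. Rpl5 and Rpl11, which with 5S rRNA can bind Mdm2 and so restrain its action on p53, did not pass either. Rpl5 averaged 391 ± 31.3 FPKM in Spry1_KO and 409 ± 53.8 FPKM in Control (-0.06 ± 0.13, limma adjusted p = 0.746). Rpl11 measured 417, 436 and 529 FPKM in Spry1_KO and 416, 414 and 378 FPKM in Control (0.19 ± 0.12, limma adjusted p = 0.241). Of the 4 tested genes of the p53 and Mdm2 list, Trp53 rose (25.6 ± 2.93 FPKM in Spry1_KO against 17.6 ± 1.501 FPKM in Control, limma adjusted p = 0.00674), a call absent under TPM and ribosomal protein scaling. Mdm2 (9.37 ± 1.02 FPKM in Spry1_KO against 12.1 ± 1.08 FPKM in Control, limma adjusted p = 0.0327) and Mdm4 (6.17 ± 0.866 FPKM in Spry1_KO against 10.6 ± 1.19 FPKM in Control, adjusted p = 0.0032) fell, a call that held for Mdm4 in 17 of 17 alternatives and for Mdm2 in 9, with adjusted p from 0.0177 to 0.0923, including 2 of the 6 fits that leave out 1 sample.

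Of the copies with restricted expression, Rpl3l, Rpl10l and Rpl39l were close to absent in both groups. Rpl3l, the muscle form of Rpl3, was listed at 0.03, 0.07 and 0.07 FPKM in Spry1_KO and at 0.10, 0.20 and 0.12 FPKM in Control, which corresponds to 1 to 6 recovered reads, beside 506 ± 16.5 and 479 ± 49.9 FPKM for Rpl3 in Spry1_KO and Control. Rpl10l, a testis form, had no reads in any sample, while Rpl10 averaged 738 ± 37.6 FPKM in Spry1_KO and 704 ± 107 FPKM in Control. Rpl39l, also known from testis, had 2, 0 and 15 recovered reads in Spry1_KO and 5, 0 and 6 in Control, while Rpl39 averaged 461 ± 126 FPKM in Spry1_KO and 457 ± 10.8 FPKM in Control. Rpl3, Rpl10 and Rpl39 had fold changes between -0.02 and 0.08 on the log2 scale.

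Rps4l, annotated as a transcribed pseudogene, measured 25.1, 47.7 and 55.2 FPKM in Spry1_KO and 19.0, 19.9 and 25.7 FPKM in Control. It passed the threshold (0.89 ± 0.29, limma adjusted p = 0.0345), and did so in 9 of 16 alternatives, although the groups overlapped. Only 1.66% of its windows occur elsewhere. Rps4x, the form on the X chromosome that most cells use, stood at 1034 ± 57.3 FPKM in Spry1_KO and 1097 ± 185 FPKM in Control (-0.07 ± 0.16). Rps27l, a p53 target in human cells, and Rps27 were both nearly equal between the groups: Rps27l averaged 207 ± 29.5 and 203 ± 4.85 FPKM (0.02), and Rps27 averaged 863 ± 200 and 853 ± 39.2 FPKM (-0.01), in Spry1_KO and Control. Among the tested members, Rpl24 and Rps10 were listed with a mean of only 1.18 and 1.37 FPKM in Spry1_KO and 1.65 and 1.64 FPKM in Control, and both were named after their values were seen. They share 80.1% and 75.7% of their windows with other transcripts, though Rps27 shares 98.4%. Of the exon bases of Rpl24, 47.0% overlap Gm28037 on the same strand. Of those of Rps10, 28.7% overlap RPS10-NUDT3 on the same strand or Gm15420 on the opposite one. How far the values of Rpl24 and Rps10 measure the mRNA is uncertain, and the part of these overlaps was not tested.

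Shared sequence touched most of the family. In 71 of 83 members at least 1 window occurred in an annotated pseudogene. Among the 36 members with at least 50% of their windows shared, 9 were called and the median log2 fold change was 0.25. Among the 19 tested members with under 20% shared, 6 were called and the median was 0.06. Rps3, Rps19, Rpl41, Rplp2, Rps4l and Rpl8 are the called members of this second group. Those of the first group include Rpl36a (83.6%), Rps13 (77.6%), Rpl10a (75.9%) and Rps27a (69.1%), with the same caution as for Rpl13a. Members with 20% to 50% shared are in neither group, with Rpsa (31.1%) called among them. A link of shared sequence with the change was not tested. Of the 91 tested rows named as ribosomal protein pseudogenes, 9 were higher and 4 lower, with a median of 0.04.

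The spread of the members was largely shared by whole samples. The third Spry1_KO sample held the highest value of 67 of the 80 members, and the third control the lowest of 46. Relative to each gene's own mean, the median of the 77 tested protein-coding members stood at -0.02, 0.01 and 0.25 on the log2 scale in the 3 Spry1_KO samples. In the 3 controls it stood at -0.04, -0.01 and -0.18. The first 2 samples of each group were thus nearly level, and the groups overlapped. Without the third Spry1_KO sample the members' median was 0.07, with 5 higher and 4 lower (24.5% and 20.9% of all genes); without the third control it was 0.12, with 9 higher and 1 lower (31.6% and 26.3%). Leaving out any 1 of the other 4 samples left 5 to 7 higher and 0 lower (24.6% to 26.5% and 19.3% to 20.6% of all genes). In all, 34 of the 80 tested members had every Spry1_KO sample above every control and 2 of 80 every one below. Of all tested genes 34.9% lay above and 29.4% below. The groups overlapped in 44 of the 80 members (55%), against 35.8% of all tested genes.

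**Figure D4:**
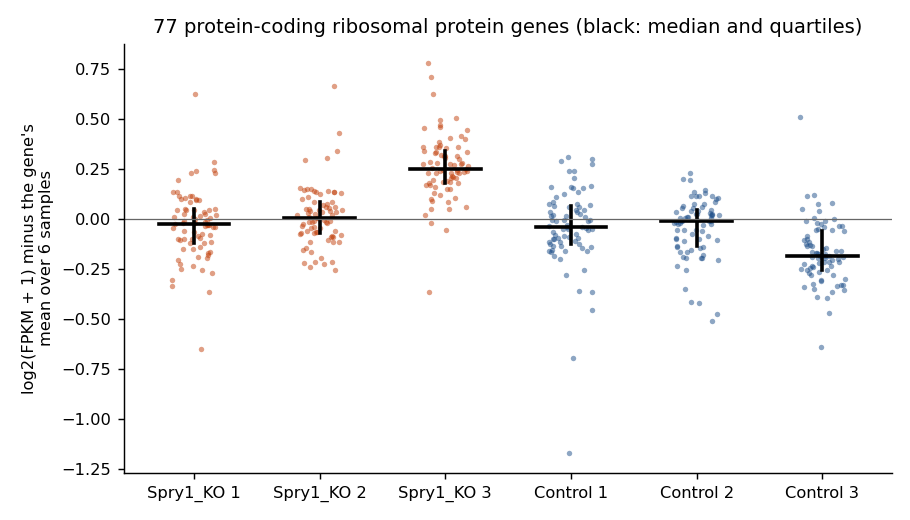
Log2(FPKM + 1) of the protein-coding ribosomal protein genes minus each gene's mean over the 6 samples, by sample, with Spry1_KO on the left and Control on the right; black lines give the median and quartiles. The third Spry1_KO sample sits highest, with a median near 0.25 over the 77 genes drawn, the third control lowest near -0.18, and the other 4 samples lie near 0.

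Summed over the 83 genes, ribosomal protein FPKM came to 52632, 54056 and 64884 in Spry1_KO and to 52402, 52549 and 47506 in Control. The lowest Spry1_KO sum exceeded the highest control by little. As a share of all FPKM the order was the other way: the members held 12.7%, 11.98% and 13.4% in Spry1_KO and 13.6%, 13.7% and 13.9% in Control, without overlap. The total of all FPKM was 413426, 451105 and 482950 in Spry1_KO and 385073, 383314 and 341508 in Control. As a share of recovered reads they held 8.26%, 8.01% and 9.31% in Spry1_KO and 8.46%, 8.51% and 7.85% in Control, and the groups overlapped. The ratio of large to small subunit sums was 1.65, 1.69 and 1.67 in Spry1_KO and 1.66, 1.64 and 1.61 in Control, again with overlap.

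Genes for building ribosomes and for translating rose in larger numbers, a difference from the ribosomal protein genes that was not tested. Of 40 ribosome biogenesis genes, which process rRNA and assemble subunits in the nucleolus, 39 rose and 0 fell, with a median log2 fold change of 0.85 (limma; 40 higher and 0 lower at an unadjusted p under 0.05, and 0 lower by limma-voom). Nop16 averaged 31.4 ± 0.811 against 15.3 ± 0.335 FPKM, Bysl 12.9 ± 0.244 against 4.97 ± 0.538 FPKM, Ddx21 (an RNA helicase) 45.8 ± 1.70 against 20.5 ± 1.69 FPKM and Dkc1 (the pseudouridine synthase dyskerin) 20.9 ± 1.48 against 9.82 ± 0.286 FPKM, in Spry1_KO and Control, with limma adjusted p between 8.49e-05 and 0.000129. Nat10 was the exception (0.43, adjusted p = 0.0568), though it was called in 4 of 17 alternatives. Of 77 tested mitochondrial ribosomal proteins 59 rose and 0 fell by limma (60 higher and 0 lower at an unadjusted p under 0.05, and 0 lower by limma-voom), with a median of 0.47, led by Mrpl12 at 59.0 ± 2.72 FPKM in Spry1_KO against 20.99 ± 0.599 FPKM in Control (1.45, limma adjusted p = 2.72e-05). Under TPM scaling 32 of the mitochondrial genes rose and 2 fell.

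Of 35 translation factors 24 rose and 1 fell, with a median of 0.58. Eif1a, which helps scan for the start codon, rose by 1.16 on the log2 scale, Eif2s2 by 0.86 and Pabpc1, the poly(A) binding protein, by 0.83. Eif4a2, an RNA helicase of initiation, fell to 30.4 ± 0.760 FPKM in Spry1_KO, against 62.9 ± 4.23 FPKM in Control (limma adjusted p = 0.000126). Of 14 RNA polymerase I genes, which make rRNA, 6 rose, among them Polr1a and Polr1e, and 2 fell, Taf1a and Taf1c, with a median of 0.27. Of 8 small nucleolar RNA host genes, 4 rose (Snhg5, Zfas1, Snhg1 and Snhg8; median 0.34). Snhg5 and Zfas1 were called in all 16 alternatives and Snhg1 in 14, but Snhg8 in 3, with a limma adjusted p of up to 0.502. Of 9 ribosomal proteins outside the naming rule, 3 rose, among them Rpl22l1 (0.59) and Rpl7l1 (0.48, called in 14 of 17 alternatives), copies related to Rpl22 and Rpl7. Rack1 (0.28) and Rps3a1 (0.03) did not pass.

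**Figure D5:**
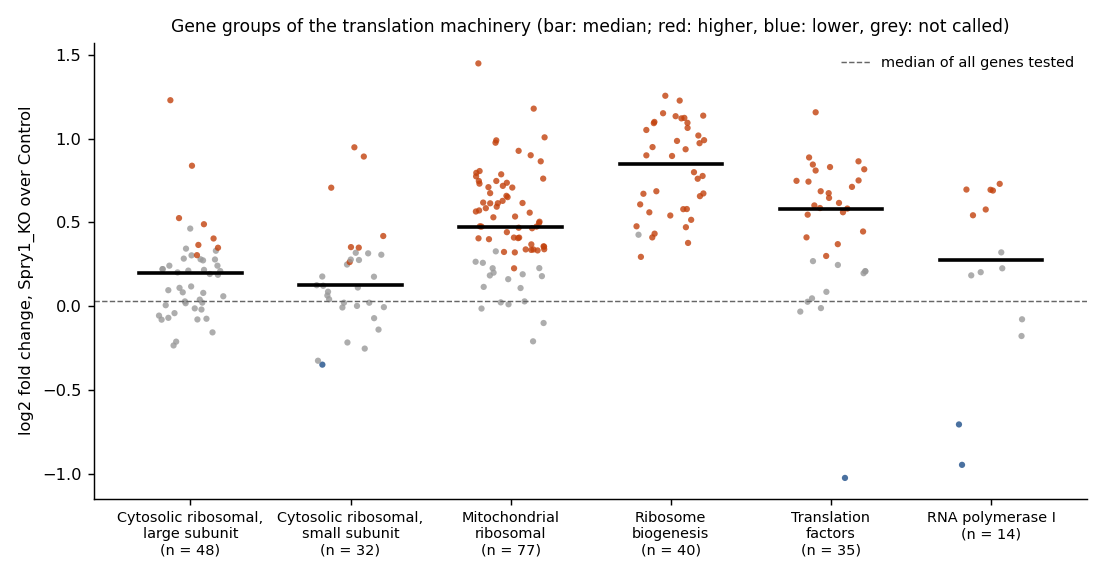
Log2 fold change (Spry1_KO over Control) of each gene in 6 groups of the translation machinery; points are genes, bars the median, and the dashed line the median of all tested genes, 0.03. In the reported fit the medians are 0.20 and 0.12 for the large and small cytosolic subunits and 0.47 for mitochondrial ribosomal proteins. They are 0.85 for ribosome biogenesis, 0.58 for translation factors and 0.27 for RNA polymerase I. Under TPM scaling the large and small cytosolic subunits stand at -0.08 and -0.16 and all tested genes at -0.20. Medians of the other groups under that scaling are not given.

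Among upstream regulators of ribosomal protein synthesis, calls went in both directions, beside 29.6% higher and 24.4% lower over all tested genes. Of 15 tested genes of the mTORC1 and S6 kinase list, 8 rose and 1 (Tsc1, called in 14 of 17 alternatives) fell, with a median of 0.24. Eif4ebp1, the translation repressor that mTORC1 inactivates, measured 30.8, 37.8 and 28.8 FPKM in Spry1_KO and 10.6, 12.6 and 9.70 FPKM in Control (1.48 ± 0.13, limma adjusted p = 0.000207). Larp1, the protein that binds terminal oligopyrimidine mRNAs, measured 35.6, 32.1 and 34.7 FPKM in Spry1_KO and 21.3, 20.6 and 25.003 FPKM in Control (0.60 ± 0.10, limma adjusted p = 0.00230). The call of Larp1 was lost under TPM scaling (0.33, limma adjusted p = 0.0925, range 0.000312 to 0.0925). Both genes had every Spry1_KO sample above every control. Akt1s1 (0.67) and Deptor (0.69), inhibitors within mTOR complexes, rose as well. So did the kinase genes Rps6kb2 (0.91), Rps6ka1 (0.47), Mtor (0.34) and Rps6kb1 (0.24), named after their values were seen. Rps6kb2 was called in all 16 alternatives, Mtor in 9 of 17 and Rps6kb1 in 3 of 17.

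Myc measured 55.8, 51.0 and 46.4 FPKM in Spry1_KO and 25.04, 26.6 and 59.7 FPKM in Control. The third control, the sample with the lowest ribosomal protein values, had the highest Myc value of all, and the difference did not pass the test (0.56 ± 0.31, limma adjusted p = 0.170). Without that control Myc was called higher (0.96, limma adjusted p = 0.000618, the lowest of a range up to 0.519 over 17 alternatives), as it was in 2 others, with array weights (0.89) and without that control and the second Spry1_KO sample together (0.95). Of 9 tested genes of the Myc family 3 rose and 3 fell, beside 29.6% and 24.4% of all tested genes. Mycl (-1.49), Mxd4 (-1.08) and Mga (-0.79) fell, and Mxd3 (1.43), a Max partner that represses, was among those that rose.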

How the data were processed

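RNA-seq of mouse back epidermis was analysed from 1 table of FPKM values for 54532 genes that the authors deposited, with 1 column per sample; groups and replicate numbers come from the sample titles. HISAT2 2.0.5, featureCounts 1.5.0-p3 and the builds GRCm38 and mm10 are named in the submitters' processing notes. No source used here states the annotation release, the strandedness, how reads with several matches were treated or how FPKM was computed; reads of a gene cannot be separated from those of one that overlaps it or runs antisense. Per the labels' protocols, each library started with 0.4 ug of total RNA. Gene positions came from GENCODE M21 (GRCm38), which matched 54495 IDs; 27 gene names turned into dates were replaced by ID. FPKM multiplied by exon length gave whole reads for 97.0% to 97.3% of values (tolerance 0.1 reads). The library totals implied by the authors' FPKM values were 88.1% to 95.6% of the recovered reads in Spry1_KO and 98.8% to 102.9% in Control.

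Genotype was tested two-sided on log2(FPKM + 1) with limma 3.58.1 under R 4.3.3, using its mean-variance trend, in the 12629 genes averaging 1 FPKM or more. P-values were Benjamini-Hochberg adjusted over all of these genes, with a threshold of 0.05, and the script was tested on simulated data. Fold changes on this scale understate low genes. Shared sequence is the share of 100-base windows of a member's transcript found in transcripts of other genes. Promoter windows came from RefSeq (GRCm38.p6). Figures used matplotlib 3.10.9 (Python 3.11.15).

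Named members were the largest rises and falls past the threshold with groups that do not overlap (up to 8 each), the 4 most abundant, copies with restricted expression beside their common partners, the stalk proteins, Rpsa, Rpl5, Rpl11 and Rps6; of each other list up to 4 past the threshold with the lowest p, plus Trp53, Mdm2 and Myc. Tsc1, Nat10, Fau, Rps3a1, Rack1, Spry1 and other genes outside this rule were chosen after their values were seen. Some genes are not reported here by name. The members, lists and alternatives were chosen with earlier results of these data known. Alternatives were leaving out each sample, another pseudocount (0.1), no filter, TPM and median-ratio scaling, sample weights in limma (array weights), the replicate number as a block, protein-coding genes alone, and limma-voom on recovered reads, which called 6519 of 12008 genes. Chosen after seeing the data were scaling to recovered reads, scaling to the ribosomal protein genes, counting the members annotated as protein-coding alone, and leaving out the third control and second Spry1_KO sample together.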

Additional observations from a re-analysis of the deposited data

How the results depend on the processing

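Rpl13a and Rps2 kept direction and call in all 17 alternatives, whereas 7 of the 16 called members were called in at most 8 of them; 47 members were never called. Without a filter on low values, the members called numbered 2 higher and 0 lower (large subunit 1 higher; small subunit 1 higher and 0 lower), beside 14.1% higher and 13.1% lower of the 28340 genes then tested. TPM scaling gave 3 higher and 14 lower (large 2 and 8, small 1 and 6), beside 2058 (16.3%) of all genes higher and 35.3% lower, and turned the medians to -0.10 for the members, -0.082 for the large and -0.16 for the small subunit. Scaling to recovered reads gave 4 higher and 4 lower (large 2 and 1, small 2 and 3), beside 23% and 29.6% of all genes, with medians of 0.044, 0.064 and -0.0094. Scaling to the ribosomal protein genes gave 7 and 6 (large 4 and 2, small 3 and 4), with medians of 0.020, 0.041 and -0.033, beside 2439 (19.3%) of all genes higher and 27.2% lower. Median-ratio scaling gave 3 lower, with 3 higher and 3 lower in the small subunit; array weights gave 4 lower (large 1, small 3); limma-voom gave 2 lower, both of the small subunit. These 3 called 26.6%, 28.6% and 26.8% of all genes lower. The cause of these shifts was not tested.

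Leaving out 1 sample gave 5 to 9 members higher and 0 to 4 lower (large 3 to 5 and 0 to 1, small 1 to 4 and 0 to 3), beside 24.5% to 31.6% and 19.3% to 26.3% of all genes. Without the third control and second Spry1_KO sample together, 5 were higher and 0 lower (large 3 higher; small 2 higher and 0 lower), beside 28.7% and 24.4% of all genes. The mean share of the members was 8.53% in Spry1_KO and 8.27% in Control of recovered reads, and 13.7% and 14.9% of protein-coding FPKM.

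Deviations from the group means of same-numbered samples correlated at -0.10, -0.11 and -0.12 across all genes, and at 0.08, -0.27 and -0.24 across the members. With 3 samples in each group, these values cannot settle whether the replicate numbers pair the samples. With a replicate block, 6 members were higher and 0 lower (large 3 higher; small 3 higher and 0 lower), beside 25.5% and 20.7% of all genes, the mTORC1 list had 0 lower and the p53 list 1 lower.

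Among the other lists, TPM scaling gave 32 mitochondrial ribosomal proteins higher and 2 lower, 4 RNA polymerase I genes lower, 4 mTORC1 genes higher and 3 lower, 1 Myc family gene higher, 0 p53 genes higher, 2 small nucleolar RNA hosts higher, 2 translation factors lower and 1 ribosomal protein outside the rule lower. Scaling to ribosomal protein genes gave 5 mTORC1, 1 Myc family, 0 p53 and 2 host genes higher, and 1 p53 gene lower. Without a filter 1 Myc family and 2 p53 genes were higher, 1 p53 and 0 mTORC1 genes lower. Recovered reads gave 1 Myc family gene higher and 2 mTORC1 genes lower, and limma-voom 2 mTORC1 genes lower. One mitochondrial gene was lower with array weights, as 1 was, with 1 p53 gene, without the third control and second Spry1_KO sample. Leaving out 1 sample gave 1 to 3 Myc family genes higher, 0 to 1 mTORC1 and mitochondrial genes and 1 to 2 p53 genes lower. Under TPM scaling Rpl13 stood at -0.27, Rps24 at -0.28, Rps13 at -0.015 and Rps6kb1 at -0.0032, each with the sign opposite to the reported fit. Depth did not limit the abundant members, but Rpl3l, Rpl10l and Rpl39l had 0 to 15 reads a sample.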
